A study of Homo sapiens with 12 samples.

Results

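The stretch of chromosome 6 examined here runs from 26 to 34 Mb of build hg19 and holds the major histone gene clusters followed by the extended major histocompatibility complex (MHC). Its members are all peaks on chromosome 6 whose start lies in that span, taken from 9 deposited peak lists: 504 of 58042 peaks. Peaks from 26 to 28.5 Mb are called the histone area (2.5 Mb) and those from 28.5 to 34 Mb the MHC area (5.5 Mb), names that refer to position and not to a gene under each peak. The remaining 162.731 Mb of chromosome 6, measured from the first to the last peak of any list, served as the comparison.

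The lists come from chromatin immunoprecipitation with sequencing (ChIP-seq) in HEK 293T, a human embryonic kidney line that expresses SV40 large T antigen. Cells were transfected with Cas9 (the labels name the catalytically dead form, dCas9, and the wild type, without saying which each ChIP-seq library received) and a single guide RNA (sgRNA) and collected after 3 days, and protein-bound DNA was pulled down with an antibody against the HA tag. The design assigns 2 libraries each to sgRNA1, sgRNA2 and sgRNA3 and 1 library each to sgRNA4, sgRNA5 and sgRNA6, to identify the sites bound with each guide. The 6 groups share the cell line, the transfection and the antibody and differ by label in the guide alone, and the samples without an sgRNA, labelled dCas9 only and WT Cas9 only, were not analysed here, so no background level of peaks could be given.

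The dCas9 protein binds DNA where the guide pairs with a sequence that lies beside a protospacer adjacent motif, but does not cut it. Binding away from the intended target is known to need only a short match next to that motif and to be favoured in open chromatin. The histone clusters hold many short, intron-poor genes that are transcribed strongly in dividing cells, together with many transfer RNA genes, and the MHC is one of the most gene-dense stretches of the human genome, with the HLA antigen-presentation genes and many housekeeping genes. In the RefSeq gene table of assembly GRCh38.p14, used for names and order alone, the stretch from the first histone gene (H2AC1) to the last (H2BC17) holds 55 histone genes and 98 tRNA genes. Between that gene and HLA-F lie 38 protein-coding genes, 16 of them olfactory receptors. From HLA-F to HLA-DPB1 there are 128 protein-coding genes, 19 of them HLA genes. These stretches are bounded by genes and were not placed in hg19, so they need not match the histone and MHC areas. How many of these genes lie under a peak was not determined, since no hg19 annotation was used.

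All 6 guides had more peaks per megabase (Mb) in the span than in the rest of chromosome 6. The span makes up 4.69% of the chromosome's measured length but held 16.7% of the chromosome 6 peaks of sgRNA6 (257 of 1539), 18.2% of those of sgRNA4 (116 of 638) and 21.8% of those of sgRNA5 (102 of 467). With replicate lists merged, it held 21.8% for sgRNA1 (17 of 78), 23.7% for sgRNA2 (9 of 38) and 23.1% for sgRNA3 (3 of 13). Peak density in the span was therefore 4.08 (sgRNA6) to 6.31 (sgRNA2) times that in the rest. Among 21 windows of 8 Mb on chromosome 6, the span held the most peaks for each of the 6 guides. The lead was small in number for sgRNA1 to sgRNA3. Their next window held 8 peaks against 17 (sgRNA1), 4 against 9 (sgRNA2) and 2 against 3 (sgRNA3). The next window reached 68 peaks against 116 for sgRNA4, 33 against 102 for sgRNA5 and 175 against 257 for sgRNA6, in each case directly after the span at 34 to 42 Mb.

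The split of the span between its areas differed among guides. In peaks per Mb, sgRNA4 had 11.6 in the histone area, 15.8 in the MHC area and 3.21 in the rest. The sgRNA5 list had 12.0 per Mb in the histone area, 13.1 in the MHC area and 2.24 in the rest. For sgRNA6 the densities were 18.8, 38.2 and 7.88 peaks per Mb. These 3 guides thus had fewer peaks per Mb in the histone area than in the MHC area. The order was the opposite for sgRNA1 (9 histone and 8 MHC peaks, or 3.60 and 1.45 per Mb), sgRNA2 (5 and 4 peaks, 2.00 and 0.727 per Mb) and sgRNA3 (2 and 1 peaks, 0.800 and 0.182 per Mb), which have short lists.

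The histone area is 31.2% of the span's length. It held 18.3% of the span's sgRNA6 peaks (exact Clopper-Pearson 95% interval 13.8 to 23.6), 25.0% of the sgRNA4 peaks (17.4 to 33.9) and 29.4% of the sgRNA5 peaks (20.8 to 39.3). For sgRNA1 the share was 52.9% (27.8 to 77.0), for sgRNA2 55.6% (21.2 to 86.3) and for sgRNA3 66.7% (9.43 to 99.2). The intervals of sgRNA1, sgRNA2 and sgRNA3 include the share of length, as do those of sgRNA4 and sgRNA5, and that of sgRNA6 lies below it. Such intervals cover counting error only, since peaks of a list are not replicates.

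To compare areas over guides, each density was divided by the guide's own density over chromosome 6 (relative density, 1 being the chromosome mean), and differences were tested with an exact two-sided sign-flip permutation test over guides. The histone area exceeded the rest by 5.33 ± 3.46 (SD, n = 6 guides), positive in 6 of 6 guides, with an exact p of 0.0312 and a Benjamini-Hochberg adjusted p of 0.141 over the 9 differences tested. The MHC area exceeded the rest by 2.85 ± 0.869 (SD, n = 6), also in 6 of 6 guides, with the same exact p and adjusted p. From 37.0% (sgRNA6) to 100% (sgRNA3) of a guide's span peaks overlapped a peak of another guide. The guides are thus not independent units here, although the test treats them as such. An exact p of 0.0312 is the smallest that 6 guides allow, and the lowest adjusted p that the 9 tests could reach is 0.0938. No difference could therefore pass 0.05 after adjustment in this design. Between the areas themselves the difference was 2.48 ± 4.24 (SD, n = 6), positive in 3 of 6 guides, with an exact p of 0.25, less than the spread between guides. The higher histone densities of sgRNA1, sgRNA2 and sgRNA3 rest on their replicate 2 lists, which held all but 2 of the span peaks of these guides. Without replicate 2 the histone area exceeded the rest by 4.56 ± 8.94 (SD, n = 6, exact permutation p = 0.156).

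**Figure D1:**
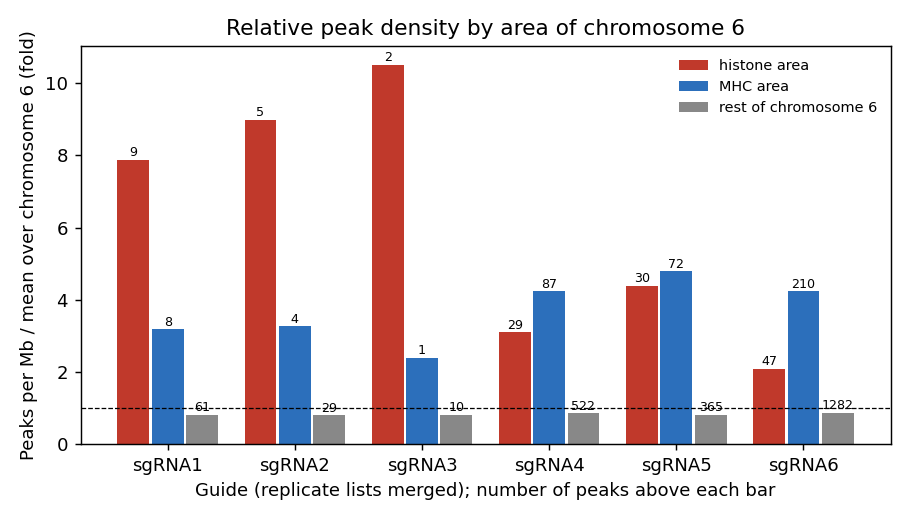
Relative peak density (peaks per Mb divided by the guide's mean over chromosome 6, fold) for each guide in the histone area, the MHC area and the rest of chromosome 6, with the number of peaks above each bar and a dashed line at the chromosome mean. Every histone and MHC bar is above 1, and the histone bar is the taller of the pair for sgRNA1, sgRNA2 and sgRNA3 (2 to 9 histone peaks) and the shorter for sgRNA4, sgRNA5 and sgRNA6.

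In bins of 0.5 Mb every bin of the span held peaks. Fixed bins can hide a sparse stretch that crosses a bin edge. Between the sgRNA5 peaks that end at 32164728 and start at 32821172, only sgRNA6 had peaks. Overlapping peaks of all lists were merged into regions, 85 in the histone area and 253 in the MHC area. The 31.5 to 32 Mb bin held the most regions (46), followed by 33.5 to 34 Mb (36) and 30.5 to 31 Mb (26), all in the MHC area. In the histone area the fullest bins were 27 to 27.5 Mb (22 regions), 28 to 28.5 Mb (21) and 27.5 to 28 Mb (19). The bin from 29 to 29.5 Mb held 2 regions, both from sgRNA6 alone, and no peak of the other 5 guides.

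Bins that were full for one guide were not always full for another. The bin from 33.5 to 34 Mb held 33 peaks of sgRNA6 and 10 of sgRNA4 but 3 of sgRNA5. The neighbouring bin from 33 to 33.5 Mb held 14 peaks of sgRNA4, 15 of sgRNA5 and 19 of sgRNA6, and it was, with 27 to 27.5 Mb, one of 2 bins with peaks of all 6 guides. The latter bin held 4 sgRNA1, 2 sgRNA2 and 2 sgRNA3 peaks. Across the 16 bins Spearman's rho was 0.827 between sgRNA4 and sgRNA6, 0.494 between sgRNA4 and sgRNA5 and 0.507 between sgRNA5 and sgRNA6, as a description of bins that share a library and gene density. In the rest of chromosome 6 the median bin held 1 peak of sgRNA4, 1 of sgRNA5 and 3 of sgRNA6. The fullest bins of the rest, all between 42.5 and 44 Mb, held 14, 8 and 26 peaks of these guides, against at most 7, 11 and 13 in a histone-area bin and 14, 15 and 35 in an MHC-area bin.

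**Figure D2:**
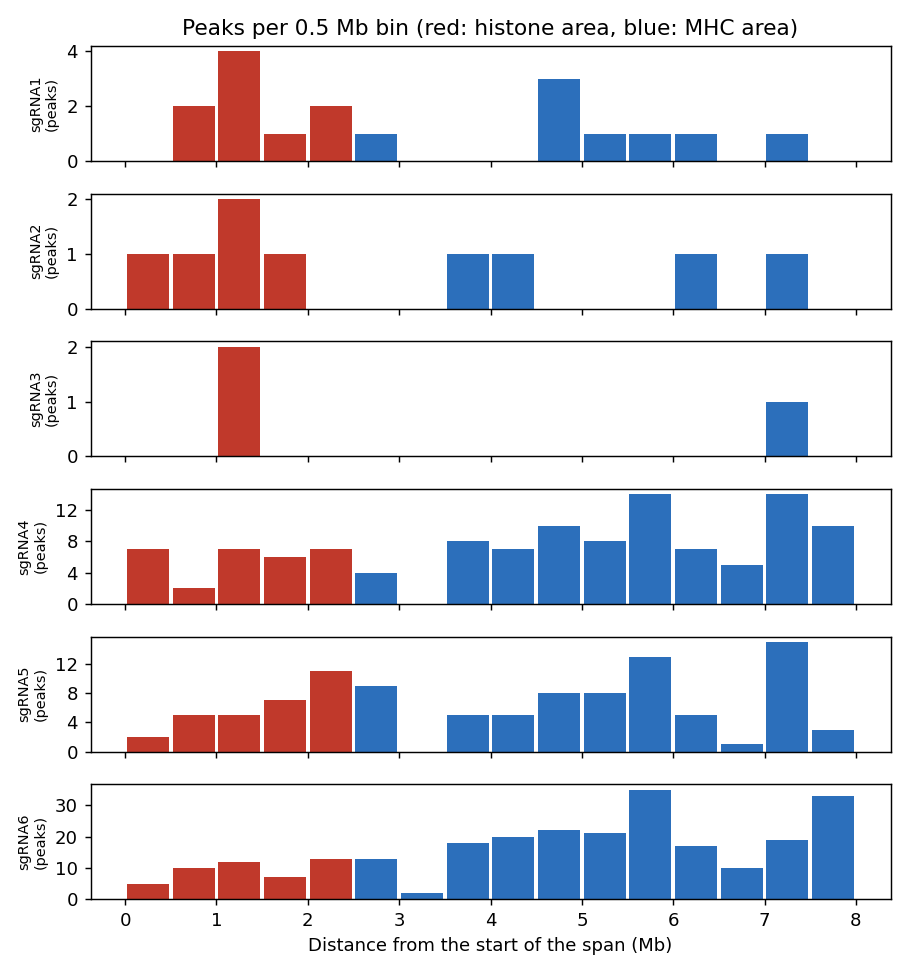
Number of peaks of each guide in each 0.5 Mb bin, against the distance from the start of the span in Mb, with the histone area in red and the MHC area in blue and a separate vertical scale per guide. The bin 3 to 3.5 Mb into the span is empty for sgRNA1 to sgRNA5 and holds 2 peaks of sgRNA6.

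By score, the peaks of the span ran from near the top to the bottom of their lists. The deposited score was read only as a rank, as a percentile within its own list with 100 the highest. Median percentiles in the histone area, the MHC area and the rest were 47.1, 58.7 and 49.3 for sgRNA4, 39.2, 46.3 and 48.4 for sgRNA5, and 50.6, 46.7 and 50.1 for sgRNA6. For sgRNA1 they were 56.4, 48.1 and 49.3. Over guides with at least 5 peaks in both areas compared, the histone area differed from the MHC area by -1.65 ± 9.25 percentile points (SD, n = 4, exact permutation p = 0.875) and the MHC area from the rest by 0.705 ± 5.88 (SD, n = 4, exact permutation p = 1). The histone area differed from the rest by 3.24 ± 11.1 points (SD, n = 5, exact permutation p = 0.688). The last difference changed sign when data were left out, to -3.01 points without replicate 1 and -0.945 without sgRNA2, whose own difference was 20 points. These differences were smaller than the spread between guides, and with 4 guides no p below 0.125 is possible.

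The top 10% of each list by score was also counted. For sgRNA5 it held none of the 30 histone-area peaks, the best being rank 1708 of 8346. It held 8 of the 72 MHC-area peaks of sgRNA5 and 38 of the 365 in the rest. The count of 0 among 30 was not tested against the 10% share of the whole list. For sgRNA4 the top 10% held 2 of 29 histone-area peaks, 7 of 87 MHC-area peaks and 59 of 522 in the rest. For sgRNA6 it held 5 of 47, 19 of 210 and 150 of 1282. The 1000 highest-scored peaks of each list, a limit chosen after the counts were seen, were also counted. For sgRNA4, sgRNA5 and sgRNA6 in turn, they numbered 1, 0 and 0 in the histone area. The MHC area held 4, 10 and 6 of them and the rest of chromosome 6 held 47, 47 and 44. The limit takes 1000 of 13660, 8346 and 33611 peaks, and the counts were not tested against those shares. Median peak width in the histone area, the MHC area and the rest was 590, 807 and 724 bp for sgRNA4, 537.5, 621 and 612 bp for sgRNA5 and 601, 697 and 632.5 bp for sgRNA6. Histone-area peaks were the narrowest of the 3 areas in each of these lists. Ranked by width within the list, histone-area peaks lay 10.8 ± 7.59 points below the rest (SD, n = 5), lower in 5 of 5 guides, with an exact permutation p of 0.0625, the smallest that 5 guides allow, and an adjusted p of 0.188.

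**Figure D3:**
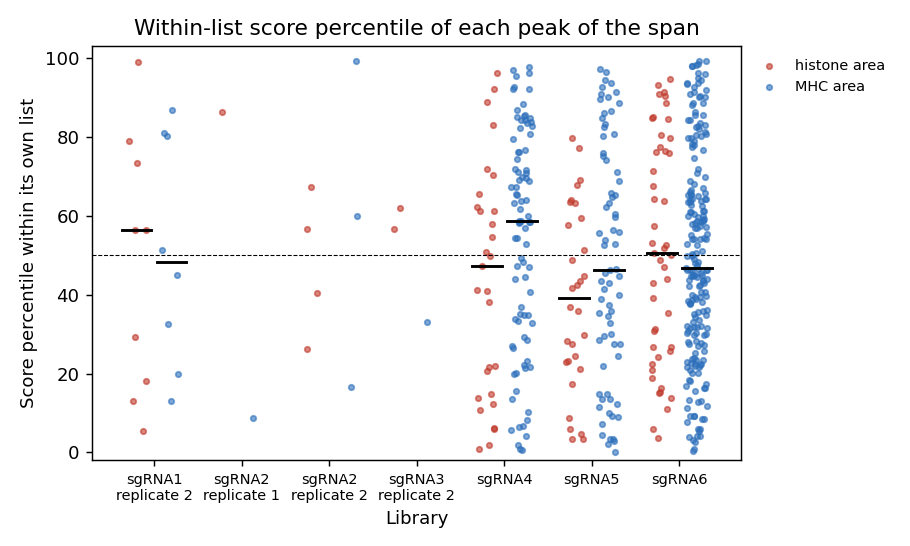
Score percentile of every peak of the span within its own list (100 highest), by library, with histone-area peaks in red, MHC-area peaks in blue, black lines at the medians of groups of at least 5 peaks and a dashed line at the list median of 50. Points fill the range from low to high in the lists of sgRNA4, sgRNA5 and sgRNA6, except that no histone-area peak of sgRNA5 lies above 79.5.

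The highest-scored peaks of the span include sites with and without a counterpart in another guide. For sgRNA4 the highest in the MHC area was chr6:30569597-30570611 (score 287.38, rank 335 of 13660) and the highest in the histone area chr6:26021479-26022280 (score 242.31, rank 535), neither overlapped by a peak of another guide. The sgRNA5 list was led by chr6:32821172-32822439 in the MHC area (score 176.91, rank 230 of 8346), which sgRNA4 and sgRNA6 also held. Its first histone-area peak, chr6:27806389-27806919 (score 93.8, rank 1708), was also an sgRNA4 peak and had none of sgRNA6. The highest sgRNA6 peak of the span was chr6:29599959-29601709 (score 707.15, rank 306 of 33611). In the histone area sgRNA6 was led by chr6:26766244-26767095 (score 356.78, rank 1773), which sgRNA1 and sgRNA5 also held. The highest sgRNA6 peaks with no other guide were chr6:28771144-28771761 in the MHC area (score 537.24) and chr6:27467956-27468565 in the histone area (score 315.45).

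In the replicate 2 lists of sgRNA1 and sgRNA2 a single site of the span stood near the top. The sgRNA1 replicate 2 list placed chr6:28367030-28367803 at rank 15 of 1278 (score 185.43), where sgRNA5 and sgRNA6 also had peaks. The sgRNA2 replicate 2 list placed chr6:32163065-32164159 at rank 6 of 570 (score 136.46). For sgRNA2 replicate 1 the best was chr6:27646192-27646818, rank 9 of 58 (score 69.49), held by no other guide. The best of sgRNA3 replicate 2 was chr6:27100075-27100624, rank 146 of 382 (score 65.16).

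No peak of the span was found in both libraries of a guide. Replicate 1 of sgRNA1 (96 peaks in all) and of sgRNA3 (41 peaks) had none in the span, and replicate 2 had 17 of 1278 and 3 of 382. Both sgRNA2 libraries had some, 2 of 58 and 7 of 570, but the 2 peaks of replicate 1 lay 205 and 927 kb from the nearest peak of replicate 2. Over the whole list, 27.6% of the replicate 1 peaks of sgRNA2 overlapped a replicate 2 peak. The share of the list in the span was 0.665% ± 0.941 (SD, n = 2 libraries) with sgRNA1, 2.34% ± 1.57 with sgRNA2 and 0.393% ± 0.555 with sgRNA3. An exact permutation test over the 6 libraries gave p = 0.467 (the smallest possible is 0.0667), a difference within the spread between libraries.

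Sharing between guides was counted as an overlap of at least 1 bp with a peak of another guide. For sgRNA4, 51.7% of histone-area peaks (15 of 29), 72.4% of MHC-area peaks (63 of 87) and 57.7% of peaks in the rest were shared, against 53.1% over its whole list. For sgRNA5 the shares were 60%, 73.6% and 64.9%, against 65.1% over the list. For sgRNA6 they were 38.3%, 36.7% and 30.7%, against 27.1%. The short lists were mostly shared everywhere: 77.8%, 87.5% and 82.0% for sgRNA1 (list 84.6%), and 80.0%, 100% and 93.1% for sgRNA2 (list 92.2%). All 3 span peaks of sgRNA3 were shared (list 78.6%).

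MHC-area peaks were shared more often than those in the rest in each of the 4 guides that had at least 5 peaks there, by 8.72 ± 4.25 percentage points (SD, n = 4, exact permutation p = 0.125, the smallest possible, adjusted p = 0.375). The histone area differed from the rest by -4.12 ± 7.44 points (SD, n = 5, exact permutation p = 0.312) and from the MHC area by -10.6 ± 9.33 points (SD, n = 4, exact permutation p = 0.25). As for density, the design allowed none of these to pass after adjustment. An overlap between peaks of different guides counts as shared for each guide involved. The guides are therefore not independent units for sharing, although the permutation test treats them as such. Agreement among guides is thus not a set of separate results. Both areas also had more peaks per Mb than the rest in every guide, and whether sharing follows local peak density was not tested.

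Counted by region, 27 of 85 in the histone area (31.8%) and 76 of 253 in the MHC area (30.0%) held peaks of at least 2 guides, against 21.3% of 43438 regions genome-wide and 23.6% in the rest of chromosome 6. At least 3 guides were present in 6 histone-area regions (7.06%) and 28 MHC-area regions (11.1%). The share was 7.30% genome-wide and 9.04% in the rest of chromosome 6, above that of the histone area. At least 4 were present in 3 (3.53%) and 6 (2.37%), against 1.93% genome-wide and 2.57% in the rest of chromosome 6, above that of the MHC area. The span had no region with all 6 guides among 338, which allows a share of up to 0.888% when 3 regions are taken as the limit for a count of 0. The histone area had none with 5 or more among 85, which by the same limit allows up to 3.53%. Genome-wide, 0.419% of regions held 5 guides and 0.0599% held 6. Both lie below these limits, so the counts of 0 do not set the span apart from the genome.

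One region held 5 guides, chr6:33265784-33268287 in the MHC area. There sgRNA1 replicate 2 had a peak at rank 242 of 1278, sgRNA2 replicate 2 at rank 476 of 570, and sgRNA6 at rank 725 of 33611 (score 523.84). The sgRNA4 list split it into 2 peaks, at ranks 1077 and 7654, and the sgRNA5 list into 3 peaks, the best at rank 3651. The peaks thus tile about the same stretch with different edges, and the first sgRNA4 peak, chr6:33265858-33266521, ends before that of sgRNA1 begins at 33266774.

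A further 5 MHC-area regions held sgRNA4, sgRNA5 and sgRNA6 together with a short-list guide. The sgRNA2 peak at rank 6 lies in chr6:32163065-32164728, where the best sgRNA4, sgRNA5 and sgRNA6 peaks had ranks 3971, 1282 and 1739. A second sgRNA2 site was chr6:29520884-29521919. The other 3 were sgRNA1 sites, at chr6:30538703-30539842, chr6:31794466-31796012 and chr6:32120872-32122539. At chr6:31794466-31796012 the ranks lay far apart: 255 of 1278 for sgRNA1, 528 of 8346 for sgRNA5, 12254 of 33611 for sgRNA6 and 13394 of 13660 for sgRNA4. A site near the top of 2 lists was therefore near the bottom of another.

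The histone area had 3 regions with 4 guides. At chr6:27440317-27441303 the sgRNA2, sgRNA4, sgRNA5 and sgRNA6 peaks had score percentiles of 67.4, 92.0, 57.6 and 15.1. At chr6:26537352-26539076 sgRNA1 and sgRNA2 overlapped each other by their ends and sgRNA5 and sgRNA6 were present. This was the one histone-area region with 2 of the guides sgRNA1 to sgRNA3. The third, chr6:28072312-28073026, held sgRNA1, sgRNA4, sgRNA5 and sgRNA6. The last of the 10 regions named by this rule, chr6:33290392-33291670, held 3 guides with the highest mean score percentile of its class (84.2).

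Among the ordered pairs of the 3 long lists, the areas stood furthest apart for sgRNA4 peaks in the sgRNA6 list, a pair singled out after its values were seen. Of the 29 histone-area peaks of sgRNA4, 5 overlapped a peak of sgRNA6 (17.2%, Clopper-Pearson 95% interval 5.85 to 35.8). In the MHC area 57 of 87 did (65.5%, 54.6 to 75.4), in the rest of chromosome 6 284 of 522 (54.4%, 50.02 to 58.7), and over the whole list 48.3%. The histone-area interval lies below both others. The sgRNA6 list had 47 peaks in the histone area, or 18.8 per Mb, against 38.2 per Mb in the MHC area and 7.88 in the rest. Whether the overlap follows sgRNA6 peak density was not tested. The median distance from an sgRNA4 peak to the nearest sgRNA6 peak was 13.1 kb in the histone area and 0 in the MHC area and in the rest. With 1 library per guide this compares 2 lists, and no test over samples is possible.

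By bin the counts are small. None of 7 sgRNA4 peaks from 26 to 26.5 Mb and none of 6 from 27.5 to 28 Mb met an sgRNA6 peak. The sgRNA6 list had 5 and 7 peaks in those bins. In the other 3 histone-area bins 5 of 16 sgRNA4 peaks did. Requiring 50% of both peaks to overlap gave 10.3%, 42.5% and 38.1% for the histone area, the MHC area and the rest, and requiring centres within 500 bp gave 17.2%, 56.3% and 48.7%. The 24 histone-area peaks of sgRNA4 without sgRNA6 had a median score percentile of 41.0, and the 238 such peaks in the rest had 41.2. Their median widths were 566 bp in the histone area and 642.5 bp in the rest.

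Other pairs of long lists differed less between areas. Of sgRNA5 peaks, 46.7% in the histone area, 62.5% in the MHC area and 60.3% in the rest overlapped sgRNA6 (whole list 57.0%), with intervals that overlap. Of sgRNA4 peaks, 24.1%, 36.8% and 25.7% overlapped sgRNA5 (whole list 23.1%), and of sgRNA5 peaks 23.3%, 48.6% and 38.4% overlapped sgRNA4 (whole list 38.2%). Seen from sgRNA6, 10.6%, 26.2% and 22.7% of its peaks overlapped sgRNA4 (whole list 20.1%) and 29.8%, 21.0% and 17.2% overlapped sgRNA5 (whole list 14.2%). Of these 6 ordered pairs, sgRNA6 peaks in the sgRNA5 list was the one whose percentage was highest in the histone area, and its histone and MHC intervals overlap.

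**Figure D4:**
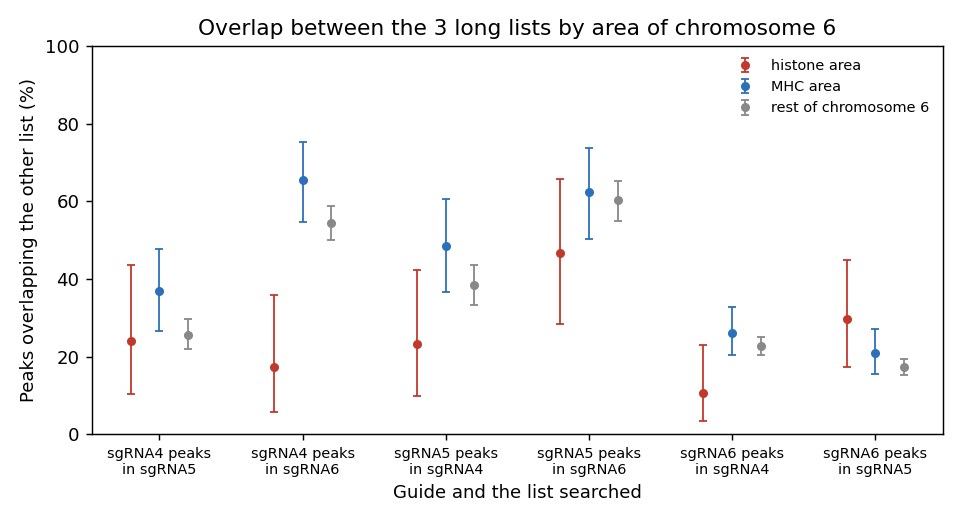
Percent of the peaks of one list that overlap a peak of another, for each ordered pair of sgRNA4, sgRNA5 and sgRNA6, in the histone area (red), the MHC area (blue) and the rest of chromosome 6 (grey), with exact 95% binomial intervals that cover counting error only. The red point for sgRNA4 peaks in the sgRNA6 list (17.2%) lies below the blue (65.5%) and grey (54.4%) points with no overlap of intervals.

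The sites of the short lists were set against sgRNA4 and sgRNA6 in the same way. Of 15 histone-area regions with a peak of sgRNA1, sgRNA2 or sgRNA3, 6 held an sgRNA6 peak (40.0%, 95% interval 16.3 to 67.7), compared with 9 of 12 in the MHC area (75%, 42.8 to 94.5) and 69 of 86 in the rest (80.2%, 70.2 to 88.0). The histone-area interval overlaps that of the MHC area and lies below that of the rest. Another 6 of the 15 held an sgRNA4 peak and no sgRNA6 peak (40.0%, 16.3 to 67.7). That combination made up 2 of 12 regions in the MHC area (16.7%, 2.09 to 48.4), 2 of 86 in the rest (2.33%, 0.283 to 8.15) and 7.73% of 2031 such regions genome-wide. The 6 were named after their values were seen.

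Of those 6 regions, 5 lie in 3 spots. At chr6:27100075-27100624 sgRNA3 had a peak, and 22 bp further on sgRNA1 had one at chr6:27100647-27101377. The sgRNA4 list held a separate peak under each, chr6:27100099-27100517 (score 75.93) and chr6:27100845-27101274 (score 68.96). The same arrangement occurred at chr6:27114025-27114751, an sgRNA2 peak, and chr6:27114825-27115477, an sgRNA1 peak 73 bp away, with sgRNA4 peaks at chr6:27113942-27114600 and chr6:27114812-27115274. The third spot was the sgRNA2 peak chr6:26031880-26032485, which lies inside the sgRNA4 peak chr6:26031862-26032564 (score 158.78, rank 1545 of 13660), the third highest sgRNA4 peak of the histone area. The sixth region was the sgRNA1 peak chr6:27860478-27861132, which adjoins the sgRNA4 peak chr6:27861105-27861647 and overlaps it only at its end. In these 6 regions neither sgRNA5 nor sgRNA6 had an overlapping peak.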

How the data were processed

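Peaks were called with MACS on reads aligned to hg19, with Bowtie and Bowtie2 also named, per the submitters' processing notes; the sources used here give no version and no role for either aligner. The deposited lists give each peak's position and the authors' score, read here only as a rank within a list; no list holds a score under 50. Read depth is unknown. Starts were converted from 0-based to 1-based. The 3 of 12 samples with no peak list were not analysed here. Replicate lists of a guide were merged, and guides were the unit of the exact sign-flip tests (Benjamini-Hochberg over 9 differences). The labels do not say whether replicates came from separate cultures, so their p-values measure the spread between libraries, which may be technical. Named regions were the 10 held by most guides, the highest-scored peaks of each area and guide (with and without overlap by another guide) and the 3 fullest bins per area; exceptions are marked. Of the 5 highest peaks per area that this rule allows, the first are printed. The members, areas and measures were chosen with earlier results of these data known. No hg19 sequence or annotation was used. Overlap calls were checked on simulated peaks. Alternatives covered scores, widths, overlap rules, boundaries, replicates and guides left out. Python 3.11.15, numpy 2.4.6, scipy 1.17.1 and matplotlib 3.10.9 were used.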

Additional observations from a re-analysis of the deposited data

Results flagged for a closer look

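The difference in relative density between the histone and the MHC area had opposite signs in sgRNA2 and in the single libraries of sgRNA4, sgRNA5 and sgRNA6. Both sgRNA2 libraries had the higher relative density in the histone area, by 12.4 in replicate 1 (1 peak against 1) and by 5.14 in replicate 2 (4 peaks against 3). With 1 peak in each area, the sign in replicate 1 follows from the unequal lengths of the areas alone. The difference was -1.13 for sgRNA4, -0.399 for sgRNA5 and -2.15 for sgRNA6. The mean of the sgRNA2 libraries exceeded sgRNA4 by 9.91, sgRNA5 by 9.18 and sgRNA6 by 10.9. With the sgRNA2 lists merged, its own difference was 5.72. The sign was the same in replicate 2 of sgRNA1 (4.88) and of sgRNA3 (8.80), whose replicate 1 lists had no span peak. The difference between guides was not tested, and it rests on 9 sgRNA2 peaks.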

How the results depend on the processing

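Of 127 values under alternative settings for 11 results, 5 moved by more than the SD between guides and 9 changed sign. One setting kept only peaks at or above the median score of their list, which cut the lists searched for partners too. The shared percentage of the histone area then differed from the MHC area by -21.2 ± 6.35 points (SD, n = 3). It differed from the rest by -27.2 ± 28.6 points (SD, n = 4). Single guides ran from -67.1 for sgRNA1, with 5 histone-area peaks, to -5.42 for sgRNA6. With unshared peaks alone, the relative density of the MHC area exceeded the rest by 1.26 ± 1.76 (SD, n = 6, exact permutation p = 0.156). That difference was negative for sgRNA2 (-0.699) and sgRNA3 (-1.05) and positive for the other guides. With width in place of score, the percentile of the histone area differed from the MHC area by -18.6 points and from the rest by -10.8 points. The cause of these moves was not tested. Leaving out each guide in turn gave relative density differences of 1.35 to 3.40 (histone minus MHC), 4.45 to 6.15 (histone minus rest) and 2.63 to 3.11 (MHC minus rest), with the lowest in the first 2 without sgRNA3. The lowest adjusted p in any setting was 0.141; the 9 tests cannot reach an adjusted p under 0.0938, so nothing about stability can be read from the threshold. Replicate 1 and 2 lists of sgRNA1 to sgRNA3 share a number only; with the replicate block, the exact permutation p for the share of the list in the span was 0.667 (smallest possible 0.167). Replicate 1 gave only 2 span peaks, both with sgRNA2. These few peaks, the short lists of sgRNA1 to sgRNA3 and 1 library each for sgRNA4 to sgRNA6 limit what can be told apart. Settings with the 1000 highest or only shared peaks were chosen after the data were seen.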
